A study of Mus musculus with 2 samples.

Results

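Cardiomyocytes are joined end to end at the intercalated disc. There, gap junctions built of connexins pass current from cell to cell, adherens junctions tie the membrane to actin, and desmosomes tie it to desmin filaments. The transcripts of 10 genes of this structure were compared between hearts with and without Med1 in cardiomyocytes. They were picked by symbol for their known place in the disc, 10 of the 22882 gene symbols in the files, and each stands on 1 row. They comprise *Gja1* (the gap junction protein Cx43), *Cdh2* (N-cadherin) and *Ctnna3* (αT-catenin) of the adherens junction, *Dsg2*, *Dsc2*, *Pkp2*, *Jup* and *Dsp* of the desmosome, and *Xirp1* and *Xirp2*, which encode actin-binding Xin repeat proteins of the disc. In mature cardiomyocytes the adherens and desmosomal parts are mixed in a common plaque, and inherited defects of several desmosomal genes are known to cause arrhythmogenic right ventricular cardiomyopathy.

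Heart RNA came from 23 day old mice on a C57BL6/J background, with sexes mixed. One library was made from the pooled RNA of 5 Med1fl/fl mice (floxed Med1 alleles, control) and 1 from that of 5 csMed1-/- mice (the same floxed alleles cut by Cre under the α-MyHC promoter). Cre from this promoter acts in cardiomyocytes, so the other cells of the csMed1-/- heart kept their Med1 alleles. Each genotype is 1 library with no replicates, and no ratio below can be set against the spread between animals or carries a test. Values are FPKM, which count fragments per length of transcript relative to all mapped fragments of a library, and each change is the ratio of csMed1-/- to control FPKM or its log2.

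*Med1* itself stood at 3.38 FPKM in control heart and 0.412 in csMed1-/- heart (ratio 0.122), the direction that the labels give. Low values gave a relative depth of 1.39 (csMed1-/- over control), which holds only if mapped fragments alone set the scale of the FPKM. Absolute depth is unknown. A gene was kept if neither library listed it at 0 and its higher FPKM was at least 1, which held for 10489 genes, all 10 disc genes among them. Of the cardiomyocyte markers 8 of 10 were kept, with a summed level of 57721 FPKM in control heart and 28200 in csMed1-/- heart and a median log2 ratio of -0.64. *Myh6* was not analysed here, and *Actc1*, cardiac actin, is listed at 0 in control and at 9189 FPKM in csMed1-/- heart, so a listed 0 need not mean that a transcript was absent. The 8 fibroblast markers summed to 503 and 1193 FPKM (median log2 ratio 0.94), and the 7 endothelial markers to 427 and 283 FPKM (median -0.67). Of the fibroblast markers 5 were higher and 3 lower, from -1.11 (*Lum*) to 4.13 (*Postn*), whereas all 7 endothelial markers were lower. In RNA of whole hearts, fewer cardiomyocytes and less transcript per cardiomyocyte cannot be told apart.

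Of the 10 disc genes, 4 were lower by more than 2-fold in csMed1-/- heart (*Gja1*, *Dsc2*, *Dsg2* and *Dsp*), where 18.0% of all genes kept were, and 1 was higher by more than 2-fold (*Xirp2*), where 13.6% were. The other 5 lay within 2-fold. In all 7 were lower and 3 higher (5 and 5 relative to the cardiomyocyte markers, where *Pkp2* and *Ctnna3* changed sign), with a median log2 ratio of -0.64 against -0.07 over all genes kept. The members differed in direction, with ratios from 0.105 (*Gja1*) to 3.87 (*Xirp2*). Their summed level was nearly the same in both libraries, 425 FPKM in control heart and 421 in csMed1-/- heart, but its make-up was not. *Xirp1* and *Jup* supplied 22.0% and 24.8% of it in control and 41.2% and 32.6% in csMed1-/- heart, while the share of *Gja1* was 12.7% and 1.33%.

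**Figure D1:**
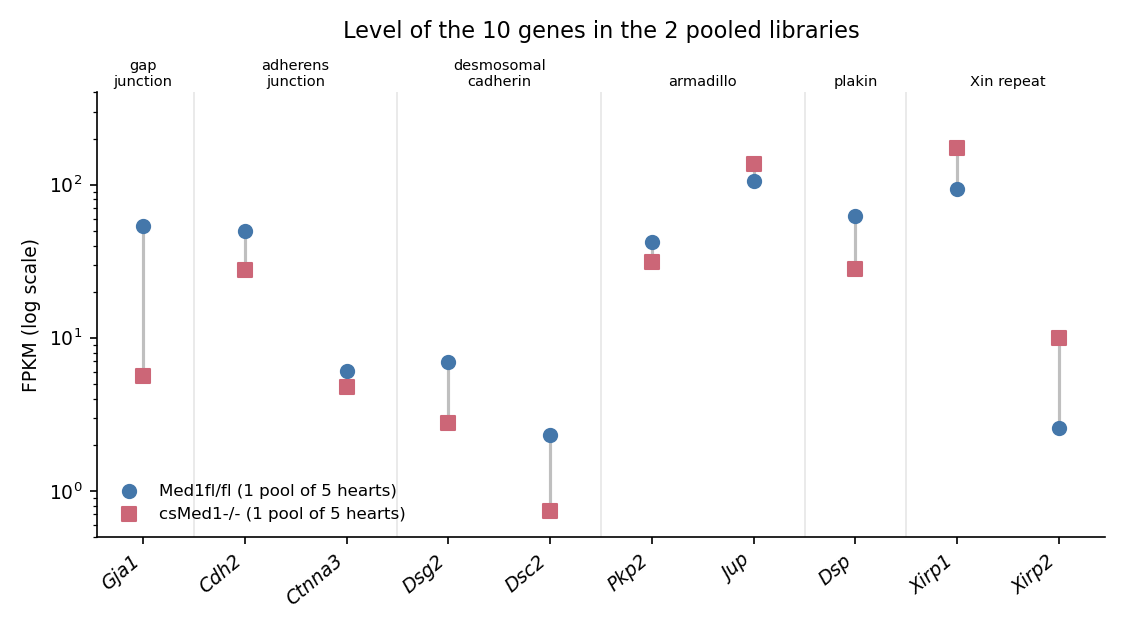
FPKM of each of the 10 genes (log scale) in the pooled Med1fl/fl library (circles) and the pooled csMed1-/- library (squares), ordered by role in the disc, with 1 library per genotype and a line joining the values of a gene. *Gja1* shows the widest gap downward, from 53.8 to 5.62 FPKM, and *Xirp2* the widest upward, from 2.56 to 9.91 FPKM.

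**Figure D2:**
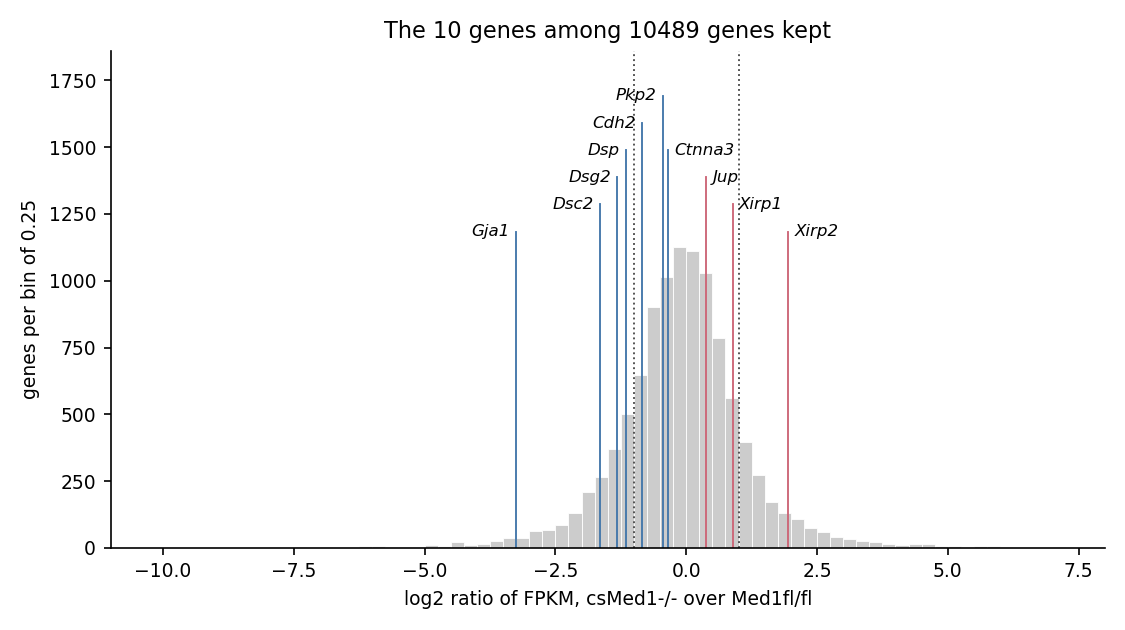
Histogram of the log2 ratio of csMed1-/- to Med1fl/fl FPKM over 10489 genes (bins of 0.25), with the 10 disc genes as vertical lines and dotted lines at 2-fold. *Gja1*, at -3.26, is the member farthest out in the lower tail, and the other 9 lie between -1.65 and 1.95.

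The 250 bases upstream of the RefSeq start of *Gja1* and *Xirp2* are shown because these genes had the largest decrease and the largest increase of the list. The windows lie on the plus strand of GRCm38.p6 at chr10:56377050-56377299 and chr2:67445752-67446001. Capitals mark matches, on either strand, to the searched motifs AP-1 (TGA and TCA with any 1 base between them), MEF2 (CTANNNNTAG), AGATAA for GATA factors and the nuclear receptor half-site (AGGTCA).
Gja1: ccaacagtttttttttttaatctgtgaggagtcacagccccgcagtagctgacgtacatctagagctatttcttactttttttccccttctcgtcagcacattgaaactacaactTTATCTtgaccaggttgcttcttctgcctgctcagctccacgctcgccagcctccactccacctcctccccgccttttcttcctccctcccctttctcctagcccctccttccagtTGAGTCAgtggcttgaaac
Xirp2: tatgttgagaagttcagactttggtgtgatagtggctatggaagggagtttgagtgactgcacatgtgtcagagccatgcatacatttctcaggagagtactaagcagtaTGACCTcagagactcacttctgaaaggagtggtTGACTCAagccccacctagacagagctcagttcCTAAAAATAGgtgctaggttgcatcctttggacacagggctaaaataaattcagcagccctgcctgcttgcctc

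The *Gja1* window holds an AP-1 match 19 to 13 bases before the start and a GATA match 135 to 130 bases before it. The *Xirp2* window holds a MEF2 match (CTAAAAATAG) 74 to 65 bases upstream, an AP-1 match 107 to 101 bases upstream and a half-site 140 to 135 bases upstream. Over all 32851 RefSeq windows of this length, 6.75% held the AP-1 motif, 3.20% the MEF2 motif, 9.99% the GATA motif and 14.0% the half-site. Thus the AP-1 letters stand before both the gene with the largest decrease and the gene with the largest increase. A TATA box (TATAAA, 12.4% of windows), the T-box half-site (AGGTGT, 11.8%) and a direct repeat of AGGTCA spaced by 1 base (0.0335%) were also searched, and neither printed window holds them. Windows were searched for 5 members, the other 3 being *Ctnna3* (3 starts), *Jup* and *Dsp*. The AP-1 letters were not found upstream of these 3 genes. The T-box letters were found upstream of *Jup*, *Dsp* and 1 start of *Ctnna3*, a TATA box at that same *Ctnna3* start and the receptor half-site at another. CpG dinucleotides numbered 0 in the *Xirp2* window, 6 in that of *Gja1*, 13 for *Jup* and 22 for *Dsp*. The 3 *Ctnna3* windows held 36, 7 and 1, and the median over all windows was 6. A match of letters is a description and shows no binding.

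Gap junctions were examined first. *Gja1* (chromosome 10, 56377330 to 56402513, plus strand, GENCODE M21 on GRCm38) encodes Cx43, the main connexin of ventricular cardiomyocytes. It had 53.8 FPKM in control heart and 5.62 in csMed1-/- heart, 9.57-fold lower (log2 ratio -3.26). Only 1.46% of the genes kept had a lower ratio. *Gja1* is also among the decreased genes that the study names from these libraries, so its direction is no independent evidence.

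The other connexins differed in direction. *Gja4* (Cx37, known from endothelium) had 25.2 FPKM in control heart and 47.8 in csMed1-/- heart. *Gjc1* (Cx45, known from the conduction system) had 9.34 FPKM in control heart and 1.07 times that in csMed1-/- heart. *Gja5* (Cx40, known from atria, conduction system and arterial endothelium) had 3.67 and 5.33 FPKM. Of these 3, none differed by more than 2-fold, and all had higher values in the csMed1-/- library. *Gja3* (Cx46) was lower, with 6.55 and 1.78 FPKM (log2 ratio -1.88).

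Because FPKM are scaled to length, the connexins can be summed within a library. Over 18 connexin genes the sum was 101 FPKM in control heart and 74.6 in csMed1-/- heart. *Gja1* made up 53.4% of the sum in control and 7.54% in csMed1-/- heart, and *Gja4* 25.0% and 64.1%. The share of *Gjc1* was 9.28% and 13.5%, and that of *Gja3* 6.50% and 2.38%. Such shares do not depend on how the libraries were scaled against each other. The first connexin in order of level was therefore *Gja1* in control and *Gja4* in csMed1-/- heart, where *Gja1* came behind *Gjc1* as well.

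**Figure D3:**
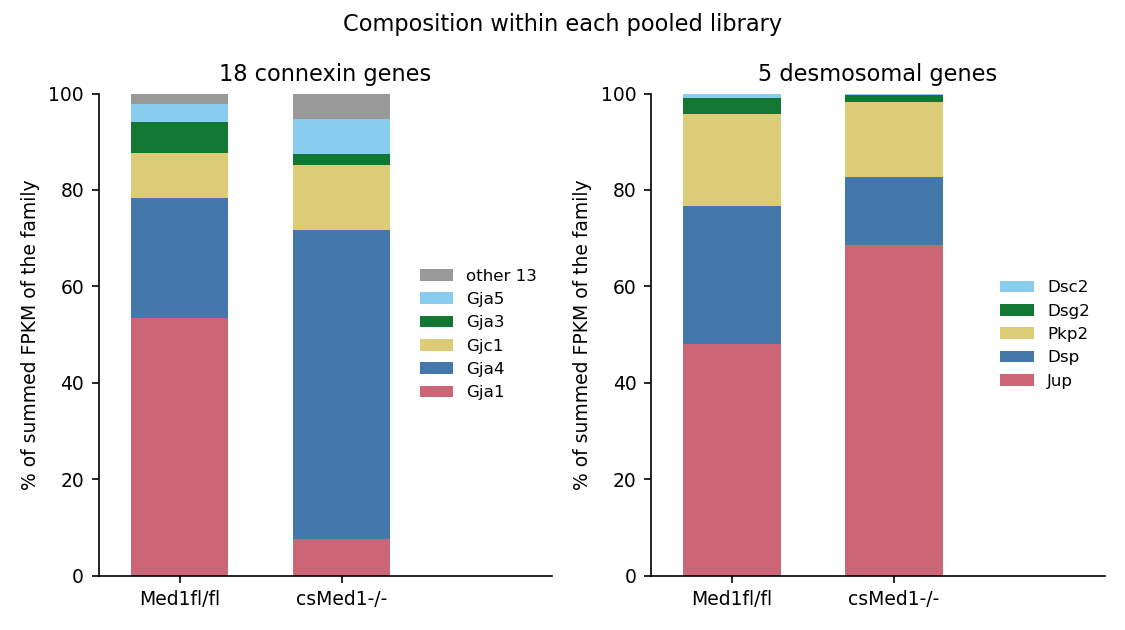
Percent of the summed FPKM that each gene contributed within the Med1fl/fl and the csMed1-/- library (1 pooled library each), for 18 connexin genes (left, 13 low ones joined) and the 5 desmosomal genes (right). *Gja1* shrinks from 53.4% to 7.54% of the connexins, while *Jup* widens from 48.1% to 68.6% of the desmosomal sum.

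Among 5425 other genes at 10 FPKM or more in either library, the genes nearest to *Gja1* by Euclidean distance over log2 FPKM in the 2 libraries were *Gsta4* (57.3 and 6.0 FPKM, distance 0.13), *Lpin1* (43.3 and 5.04 FPKM, distance 0.35) and *Gpt* (40.8 and 5.34 FPKM, distance 0.40). They encode a glutathione transferase, a phosphatidate phosphatase and alanine aminotransferase. A likeness over 2 libraries says only that level and ratio were close.

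In the adherens junction, *Cdh2* (chromosome 18, 16588877 to 16809246, minus strand) encodes N-cadherin, whose outer domain binds that of the neighbouring cell. It had 49.8 FPKM in control heart and 27.6 in csMed1-/- heart, 1.8-fold lower (log2 ratio -0.85). *Ctnna3* (chromosome 10, 63430098 to 65003667, plus strand) encodes αT-catenin, which links cadherin complexes to actin and binds plakophilin 2. Its level was 6.06 FPKM in control heart and 4.75 in csMed1-/- heart (log2 ratio -0.35). Both stayed within 2-fold and both were lower, though *Ctnna3* was higher relative to the cardiomyocyte markers.

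The other catenins of the complex behaved unevenly. *Ctnna1* (αE-catenin) carried 95.5% of the α-catenin sum in control and 94.6% in csMed1-/- heart, so *Ctnna3* was a small part in each library. *Ctnna1* had 129 FPKM in control heart and 82.6 in csMed1-/- heart. *Ctnnb1* (β-catenin) had 93.8 and 79.0 FPKM. *Ctnnd1* (p120-catenin, which holds cadherins at the membrane) had 22.7 and 32.5 FPKM, and *Vcl* (vinculin, an actin linker) 35.1 and 52.5 FPKM. All 4 lay within 2-fold, with α- and β-catenin lower and p120-catenin and vinculin higher.

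*Cdh2* was not the highest cadherin of these whole hearts. *Cdh13* (T-cadherin) had 171 FPKM in control heart and 120 in csMed1-/- heart. *Cdh5* (the endothelial VE-cadherin) had 129 and 92.2 FPKM. The share of *Cdh2* in the sum of 8 cadherin genes was 14.2% in control and 11.5% in csMed1-/- heart, a far smaller shift than that of *Gja1* among connexins.

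In csMed1-/- heart the desmosomal cadherins had the lowest levels of the 10 genes, whereas in control heart *Dsg2* lay above *Ctnna3* and *Xirp2*. *Dsg2* (chromosome 18, 20558074 to 20604521, plus strand), which encodes desmoglein 2, had 6.93 FPKM in control heart and 2.77 in csMed1-/- heart, 2.50-fold lower (log2 ratio -1.32). *Dsc2* (chromosome 18, 20030633 to 20059554, minus strand), which encodes desmocollin 2, had 2.31 and 0.735 FPKM, 3.15-fold lower (log2 ratio -1.65). The pair kept a similar proportion, 3.0 FPKM of *Dsg2* per FPKM of *Dsc2* in control and 3.77 in csMed1-/- heart.

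*Dsg2* and *Dsc2* lie in a cluster of 9 desmosomal cadherin genes on chromosome 18, from *Dsc3* (start 19960930) to *Dsg2* (end 20604521). The other 7 genes, which are known from stratified epithelia, reached at most 0.00921 FPKM in either library. *Dsc1*, *Dsc3* and *Dsg4* are listed at 0 in both. Thus *Dsg2* and *Dsc2* were the desmosomal cadherins measured in both genotypes, and the other cluster genes reached at most 0.00492 FPKM in csMed1-/- heart.

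Of the plaque proteins, *Dsp* (chromosome 13, 38151294 to 38198577, plus strand) encodes desmoplakin, which attaches the desmosome to desmin. It had 62.3 FPKM in control heart and 28.1 in csMed1-/- heart, 2.22-fold lower (log2 ratio -1.15). *Pkp2* (chromosome 16, 16213318 to 16272712, plus strand) encodes plakophilin 2, an armadillo protein that gathers desmoplakin at the membrane. It had 42.1 and 31.1 FPKM (log2 ratio -0.44) and stayed within 2-fold, with the opposite sign relative to the cardiomyocyte markers. *Jup* (chromosome 11, 100368958 to 100397763, minus strand) encodes plakoglobin, which binds both desmosomal cadherins and N-cadherin. It had 105 FPKM in control heart and 137 in csMed1-/- heart, 1.31 times the control level (log2 ratio 0.38). In the values as deposited, *Jup* was thus the only one of the 5 desmosomal genes that was higher in the csMed1-/- library.

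The 5 desmosomal genes summed to 219 FPKM in control heart and 200 in csMed1-/- heart, but their proportions differed. *Jup* was 48.1% of the sum in control and 68.6% in csMed1-/- heart. *Dsp* was 28.5% and 14.0%, *Pkp2* 19.2% and 15.6%, *Dsg2* 3.17% and 1.39%, and *Dsc2* 1.06% and 0.368%. For each FPKM of *Dsp* there were 1.69 FPKM of *Jup* in control and 4.89 in csMed1-/- heart. For each FPKM of *Dsg2*, *Jup* stood at 15.2 in control and 49.5 in csMed1-/- heart, whereas *Dsp* stood at 8.99 and 10.1. The proportion of *Dsp* to *Dsg2* thus differed little between the libraries, and that of *Jup* to either differed by about 3 times.

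Most paralogs of these genes were near 0 or within 2-fold. *Pkp1* and *Pkp3* did not pass 0.0427 FPKM in either library. *Pkp4* had 19.4 FPKM in control heart and 13.7 in csMed1-/- heart, and *Pkp2* made up 68.4% and 69.4% of the 4 plakophilins. The plakins *Ppl* and *Evpl* were at most at 0.432 FPKM. *Plec* (plectin, a cytolinker of many cell types) had 55.0 and 82.5 FPKM, within 2-fold. Of 36 paralogs of the members 7 were kept, none of them lower by more than 2-fold, and *Cdh13* had the highest level.

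The genes of the Xin repeat proteins were higher in csMed1-/- heart. *Xirp1* (chromosome 9, 120013755 to 120023598, minus strand) encodes Xin, which binds actin and β-catenin at the disc. It had 93.6 FPKM in control heart and 174 in csMed1-/- heart, 1.85 times the control level (log2 ratio 0.89). *Xirp2* (chromosome 2, 67446002 to 67526614, plus strand) encodes the related Xin repeat protein 2. It had 2.56 and 9.91 FPKM, 3.87 times the control level (log2 ratio 1.95), and 4.51% of the genes kept had a higher ratio.

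*Xirp1* was far above *Xirp2* in both libraries, by 36.6 times in control and 17.5 times in csMed1-/- heart. In FPKM gained, *Xirp1* led the 10 genes with 79.9 FPKM, and *Xirp2* gained 7.35 FPKM. In order of level among the members, *Xirp1* stood second in control, behind *Jup*, and first in csMed1-/- heart. *Gja1* was above *Cdh2*, *Pkp2* and *Xirp2* in control and below all 3 in csMed1-/- heart, and *Dsc2* was the lowest in both.

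Beyond the members, 27 other genes of the disc were listed, and all were kept. Of these, 4 were lower and 4 higher by more than 2-fold, where 18.0% and 13.6% of all genes kept were. The other 19 lay within 2-fold, and the median log2 ratio was -0.10. The lower ones included *Gja3*, *Mllt4* (afadin, 8.40 FPKM in control heart and 3.89 in csMed1-/- heart) and *Vezt* (vezatin, 11.9 and 5.89 FPKM). The higher ones were *Flnc* (filamin C, an actin crosslinker, 118 and 409 FPKM), *Des* (desmin, the filament that desmoplakin holds, 1871 and 4851 FPKM), *Arvcf* (an armadillo protein of the p120 family, 6.12 and 15.0 FPKM) and *Tmem43* (an inner nuclear membrane protein, 23.1 and 54.8 FPKM). Of the 4 higher ones, 2 encode cytoskeletal proteins. *Des* stood at 30.0 FPKM per FPKM of *Dsp* in control and at 173 in csMed1-/- heart.

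Some of 12 genes with known links to arrhythmogenic cardiomyopathy also stand among the other disc genes above. Of the 12, 4 were lower and 6 were higher by more than 2-fold, where 18.0% and 13.6% of all genes kept were. The lower ones included *Pln* (phospholamban, log2 ratio -3.78), *Ryr2* (the ryanodine receptor, -3.28) and *Ldb3* (a Z-disc protein, -1.29). The higher ones were *Lmna* (lamin A/C, 2.07), *Flnc* (1.80), *Ilk* (integrin-linked kinase, 1.68), *Des* (1.37), *Tmem43* (1.25) and *Tgfb3* (1.01). The list therefore divided by direction and had a median log2 ratio of 0.25. Its genes were listed for disease links and serve different parts of the cell.

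**Figure D4:**
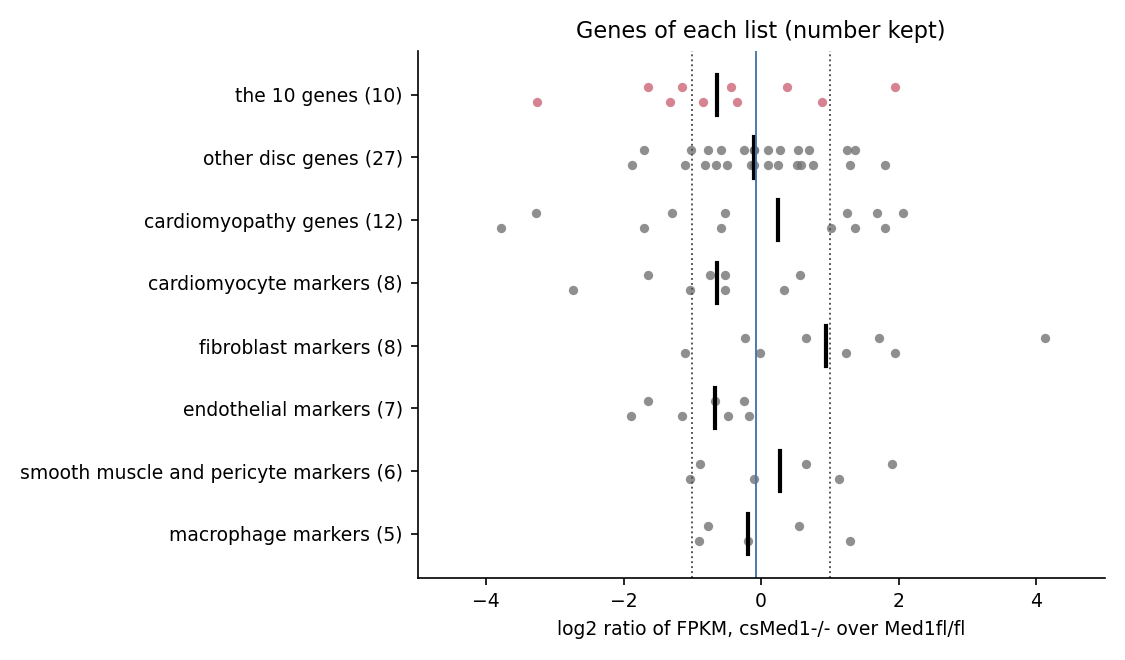
Log2 ratio of csMed1-/- to Med1fl/fl FPKM for the genes kept of each list (points, staggered for sight), with the median of the list as a black bar, the median of all genes as a blue line and 2-fold as dotted lines. The medians of the 10 disc genes and of the cardiomyocyte markers both lie at -0.64, and that of the fibroblast markers at 0.94.

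The ratios were set beside those of cardiomyocyte transcripts, since most of the 10 genes are known from these cells. The cardiomyocyte markers ran from -2.74 (*Tnni3*) to 0.56 (*Actn2*), and their median equalled that of the 10 disc genes. Expressed relative to this median, *Gja1* stayed lower by more than 2-fold (log2 -2.61), and *Dsc2* lay at the limit (-1.01). *Dsg2* (-0.68) and *Dsp* (-0.51) came within 2-fold. *Jup* (1.03), *Xirp1* (1.53) and *Xirp2* (2.60) were then higher by more than 2-fold, and *Pkp2* (0.21) and *Ctnna3* (0.29) changed sign. The same shift applied to all 10489 genes kept, of which 3325 were then higher and 857 lower by more than 2-fold. The part of cell composition in the ratios was not tested. *Jup*, *Dsp* and *Dsg2* are also known from epithelium and mesothelium. Of 8 markers of such cells 6 did not reach 1 FPKM in either library, *Wt1* had 1.19 FPKM in control heart and 1.86 in csMed1-/- heart, and *Krt19* 0.313 and 2.93 FPKM.

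**Figure D5:**
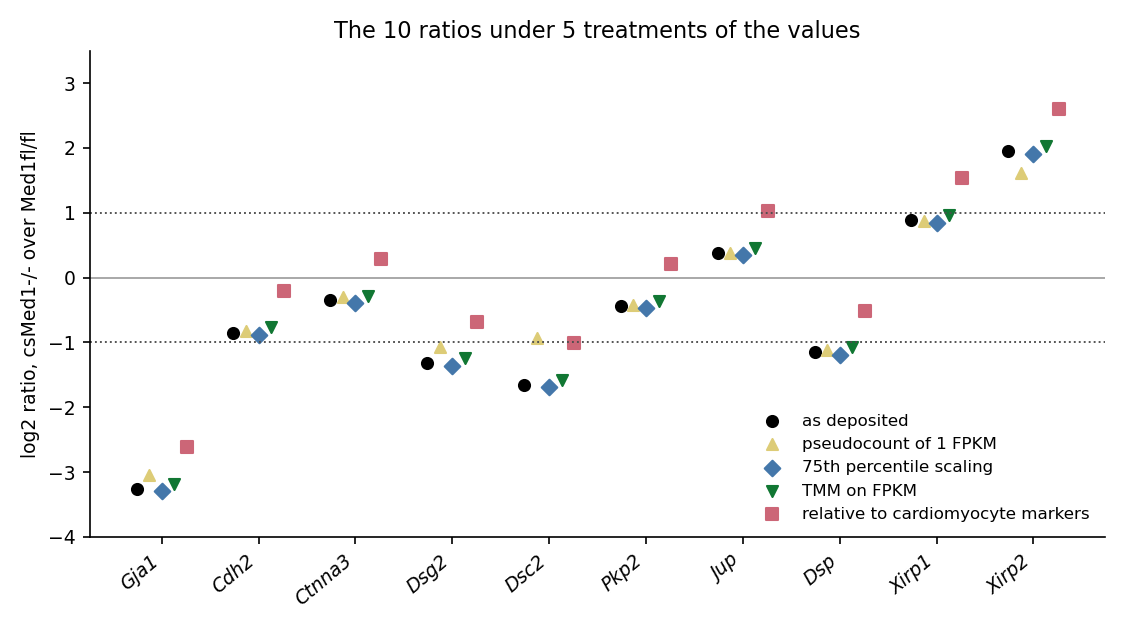
Log2 ratio of each of the 10 genes under 5 treatments of the values: as deposited, with a pseudocount of 1 FPKM, after 75th percentile scaling, after TMM on FPKM, and relative to the median of the cardiomyocyte markers. Dotted lines mark 2-fold. The library scalings move each gene by little, whereas the reference to cardiomyocyte markers lifts every gene by 0.64.

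Transcripts on the opposite strand overlap exons of 3 members in GENCODE M21, over 499 bases of *Dsp* (*Gm10129*), 330 bases of *Dsg2* (*Gm16090*) and 168 bases of *Xirp2* (*Gm13601*). The libraries were directional, but whether counting used the strand is not given in the sources used here.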

How the data were processed

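One oligo-dT selected, directional library per genotype was made from the pooled RNA of 5 Med1fl/fl or 5 csMed1-/- hearts. Reads of 50 bp were aligned by the authors, as single ends, to mm10 with TopHat (v2.0.8b), and the deposited FPKM of known genes were made by the authors with Cufflinks and cuffdiff (v2.1.1). The submitters' processing notes also name STAR 2.4.0h and Bowtie2, with no role given, and DESeq2. The library scaling within cuffdiff is not given in the sources used here.

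Rows sharing a symbol were summed. Plain ratios of FPKM were taken for the 10489 genes not listed at 0 in either library whose higher value was at least 1 FPKM. The limit was 2-fold, the size that the study uses. The study also applied an FDR cutoff with cuffdiff, which was not done here, so its gene counts and the shares above are not alike. No test was made, as each genotype has 1 library. Relative depth came from the ratio at which rows of at most 0.15 FPKM piled up. Positions came from GENCODE M21 (GRCm38) and upstream sequences from RefSeq (GRCm38.p6), both on the assembly that mm10 names. Upstream windows were matched by symbol for 5 of the 10 genes. Windows on chromosome 18 were left out, so *Cdh2*, *Dsg2* and *Dsc2* were not searched, and none was matched for *Pkp2* and *Xirp1*.

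The 10 genes and all lists were chosen with earlier results of these data known. Named genes were the members, genes of each other list past 2-fold with 10 FPKM or more in the higher library, the highest gene of each list, and the 3 genes nearest to the member with the largest change. Further catenins, connexins, plakophilins, plakins and cadherins, genes at the ends of a list's range, and listed genes past 2-fold at lower levels were added to complete each complex or count, after their values were seen. Some genes of the lists are counted but not reported by name here. Of the lists for other cells, smooth muscle and pericyte markers had a median log2 ratio of 0.28 (6 genes), macrophage markers of -0.19 (5 genes), mesothelial and epithelial markers of 1.93 (2 genes) and skeletal muscle markers of -2.31 (4 genes). The alternatives were pseudocounts of 0.1 and 1, 5 scalings, the highest row of each symbol, 2 other filters and 2 other fold limits. The computation was checked on simulated data. Python 3.11.15, numpy 2.4.6, pandas 2.3.3 and matplotlib 3.10.9 were used.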

Additional observations from a re-analysis of the deposited data

How the results depend on the processing

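Each of the 10 disc genes was recomputed under 10 alternatives. Among these, the other filters and the highest row of each symbol could not change the ratio of a member. No filter was applied to these ratios, and each member stands on 1 row. All 10 genes kept their direction in each alternative, except *Ctnna3* and *Pkp2*, which changed sign relative to the cardiomyocyte markers (0.29 and 0.21). *Gja1* ran from -3.30 to -2.61 on the log2 scale and *Xirp2* from 1.62 to 2.60, past 2-fold throughout. *Dsc2* came within 2-fold with a pseudocount of 1 (-0.93), and *Dsg2*, *Dsp*, *Jup* and *Xirp1* crossed the 2-fold limit only relative to the cardiomyocyte markers. No paired analysis was possible because each genotype is 1 library, and for the same reason no replicate could be left out. A value was taken as moved when it changed by over 1.5 times or crossed 2-fold.

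Relative to the cardiomyocyte markers the median of the 10 genes was 0.00, with 2 lower and 3 higher by more than 2-fold. All genes past 2-fold then numbered 857 lower and 3325 higher. Other disc genes numbered 2 lower and 9 higher, and paralogs 0 lower and 3 higher. With a pseudocount of 1, all genes past 2-fold were 1291 lower and 1081 higher. The other disc genes were then 2 lower and 4 higher, and the paralogs 0 lower and 0 higher. TMM gave 1724 lower and 1587 higher of all genes, with 0 paralogs lower and 2 higher. In the values as deposited, 0 paralogs were lower and 1 higher. Without a filter on low values all genes past 2-fold were 3182 lower and 2504 higher, and the paralogs 2 lower and 3 higher. A filter of 10 FPKM or more in either library removed *Ctnna3*, *Dsg2*, *Dsc2* and *Xirp2* (at most 9.91 FPKM) from the count. Of the members left, 2 were lower and 0 higher. Of *Gja1* and the 5425 other genes at this level, 885 were lower and 821 higher. The other disc genes held 2 lower and 4 higher, and the paralogs 0 lower and 0 higher. At 1.5-fold, 5 of the 10 genes were lower and 2 higher, with 3120 and 2488 of all genes. The other disc genes held 8 lower and 6 higher, and the paralogs 0 lower and 3 higher. At 4-fold, 1 of the 10 genes was lower and 0 higher, with 539 and 453 of all genes. The other disc genes and the paralogs then each held 0 lower and 0 higher, and the cardiomyopathy genes 2 lower and 1 higher. Changed filters and limits alter these counts by construction.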
